A study of Mus musculus with 20 samples.

Results

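Acsl1, Acsl3, Acsl4, Acsl5 and Acsl6 encode the long-chain acyl-CoA synthetases of the mouse, and Dbi encodes the acyl-CoA binding protein (also called diazepam binding inhibitor). These 6 genes were chosen by symbol, as suppliers and carriers of the acyl-CoA that palmitoyl transferases use, and not by their values. Earlier results of these data were known when the choice was made. The members are 6 of the 46517 genes in the deposited table, and all 6 passed the filter on low counts. RNA-seq of messenger RNA was made from frozen dissected corpus callosum and optic nerve of wild-type mice and of mice labelled as Zdhhc9 knockout, which the series' design text calls knockdown. Zdhhc9 is an X-linked gene for a palmitoyl transferase, and the study asked about its part in oligodendrocytes and myelin. There were 5 wild-type and 6 knockout libraries of corpus callosum, and 4 wild-type and 5 knockout libraries of optic nerve. The labels give no age, sex, strain or treatment, do not say which part of Zdhhc9 is changed, in which cells, and do not say that libraries of a group come from separate animals, so p-values measure the spread between these libraries, which may be partly technical.

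Long-chain acyl-CoA synthetases join a free fatty acid to coenzyme A with the use of ATP. The product is spent on membrane lipids, on oxidation in mitochondria and peroxisomes, or on the acylation of proteins, and palmitoyl-CoA is the substrate of palmitoyl transferases such as the Zdhhc9 product. In white matter, oligodendrocytes need acyl-CoA for the lipids of myelin. The binding protein holds acyl-CoA in the cytosol and hands it between enzymes, and it is known in the brain as a product of glia.

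The members lie on 5 chromosomes of the GRCm38 (mm10) build. Acsl1 (ENSMUSG00000018796) spans chr8:46471037-46536051 on the plus strand, and Acsl3 (ENSMUSG00000032883) spans chr1:78657825-78707743 on the plus strand. Acsl4 (ENSMUSG00000031278) spans chrX:142317993-142390535 on the minus strand, on the same chromosome as Zdhhc9. Acsl5 (ENSMUSG00000024981) spans chr19:55251938-55297720 and Acsl6 (ENSMUSG00000020333) spans chr11:54303798-54364756, both on the plus strand. Dbi (ENSMUSG00000026385) spans chr1:120113280-120121078 on the minus strand. Acsl3 overlaps Utp14b on the same strand and Acsl5 overlaps Zdhhc6, a palmitoyl transferase gene, on the opposite strand. Utp14b had 23.2 to 45.0 CPM (counts scaled to a common library size) and Zdhhc6 15.6 to 25.7 CPM over the 20 libraries. How shared reads were divided is not given in the sources used here. The estimated counts of Acsl3 were mostly not whole, so its level is uncertain to that extent. The same holds for Acsl1, whose counts were not whole in any of the 20 libraries, though no annotated gene was found to overlap it. Some counts of Acsl6 were not whole either. Those of Acsl5 were whole in all 20 libraries, so no division of its reads is seen. The handling of strand is not given either.

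The 250 bases upstream of the first annotated start are shown for Acsl1 and Acsl4, synthetases that differed between the tracts in both genotypes and in opposite directions, 5′ to 3′ on the gene's strand. They come from RefSeq on GRCm38.p6, where 6 of 6 members matched. Capitals mark a GC box (GGGCGG or its reverse complement CCGCCC), searched on both strands together with the CCAAT box (CCAAT or ATTGG).
Acsl1, chr8:46470787-46471036, plus strand: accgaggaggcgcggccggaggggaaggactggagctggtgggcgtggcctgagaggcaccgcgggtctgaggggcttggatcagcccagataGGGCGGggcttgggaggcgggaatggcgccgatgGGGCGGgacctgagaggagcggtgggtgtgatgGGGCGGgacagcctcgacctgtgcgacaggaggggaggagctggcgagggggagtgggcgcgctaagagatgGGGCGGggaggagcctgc
Acsl4, chrX:142390536-142390785, minus strand: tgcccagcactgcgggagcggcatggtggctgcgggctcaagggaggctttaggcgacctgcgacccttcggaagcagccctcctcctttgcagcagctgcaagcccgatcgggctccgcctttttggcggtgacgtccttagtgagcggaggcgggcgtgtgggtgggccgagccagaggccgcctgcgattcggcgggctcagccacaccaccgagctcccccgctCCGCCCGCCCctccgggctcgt
The Acsl1 window holds 4 GC boxes and the Acsl4 window holds 2, which overlap each other. Neither window holds a CCAAT box. Acsl1 has a second annotated start, whose window at chr8:46490716-46490965 differs, with 48.4% G and C, 0 GC boxes and 2 CCAAT boxes. Which start was used in these libraries cannot be read from gene-level counts. A GC box was found in 32.7% and a CCAAT box in 33.8% of the 32851 windows of this length in the same collection. The 2 windows were rich in G and C, at 72.0% for Acsl1 and 70.8% for Acsl4, against a median of 52.4% over all windows.

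The libraries held between 15401130 and 26095622 estimated counts. Zdhhc9 was at 153 to 201 CPM in wild-type callosum and 40.8 to 56.0 CPM in knockout callosum, and at 115 to 150 CPM in wild-type nerve and 35.1 to 51.4 CPM in knockout nerve. The groups did not overlap in either tract. The knockout fell by 1.95 on the log2 scale in callosum (SE 0.10, edgeR quasi-likelihood adjusted p = 1.8e-06) and by 1.70 in nerve (SE 0.13, adjusted p = 5.44e-04). The 10 oligodendrocyte markers summed to between 34360 and 93999 CPM in every library of either tract. The 10 neuron markers summed to 1012 to 4109 CPM in callosum and 228 to 448 CPM in nerve, and 5 markers of fibroblasts and meninges to 20.1 to 49.2 CPM in callosum and 1554 to 2938 CPM in nerve. No marker was at 0 in any group. In the callosum, 4 libraries carry sample numbers of 2 digits and 7 carry numbers of 6 or 7 digits, and the labels do not say what the format stands for.

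Among the synthetases, Acsl3, which is found on lipid droplets and the endoplasmic reticulum, had the highest transcript level per length in all 4 groups. In CPM per kilobase of mean transcript length, wild-type callosum held 98.0 ± 17.0 for Acsl3 (SD, n = 5), 52.6 ± 2.37 for Acsl6, 33.7 ± 4.56 for Acsl1, 7.17 ± 1.50 for Acsl4 and 3.60 ± 0.85 for Acsl5. Dbi, a short transcript, stood far above them at 419 ± 89.3. In wild-type nerve (n = 4) the level per kilobase was 763 ± 70.5 for Dbi, 76.4 ± 13.9 for Acsl3, 49.6 ± 9.74 for Acsl6, 48.0 ± 6.17 for Acsl1, 4.71 ± 0.24 for Acsl4 and 4.50 ± 0.39 for Acsl5. In the nerve, the neighbours Acsl6 and Acsl1, and Acsl4 and Acsl5, lay within their spread of each other. The order of Acsl6 and Acsl1 rests on the length used: with the longest transcript of each gene, Acsl6 and Acsl1 were at 28.1 and 27.2 CPM per kilobase in wild-type callosum and at 26.4 and 38.7 in wild-type nerve.

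The make-up of the summed level of the 5 synthetases is described by group, and its difference between the tracts was not tested. The shares add up to the whole, so a higher share of 1 gene lowers the others. Acsl3 held 49.9% ± 4.07 of the length-scaled sum in wild-type callosum and 41.6% ± 5.01 in wild-type nerve. Acsl1 held 17.2% ± 1.42 and 26.4% ± 4.29, while Acsl6 held 27.2% ± 3.38 and 26.9% ± 2.25. The knockout libraries gave 46.8% ± 4.69 and 40.2% ± 3.12 for Acsl3, and 15.4% ± 2.61 and 26.8% ± 3.01 for Acsl1, in callosum and nerve. Acsl4 and Acsl5 were the smallest pieces in every group, at 4.95% ± 1.24 and 2.61% ± 0.93 in knockout callosum. These shares rest on the mean transcript length: with the longest length Acsl4 was at 6.52% in knockout callosum, and Acsl6 was at 19.7% and Acsl1 at 18.9% in wild-type callosum.

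**Figure D1:**
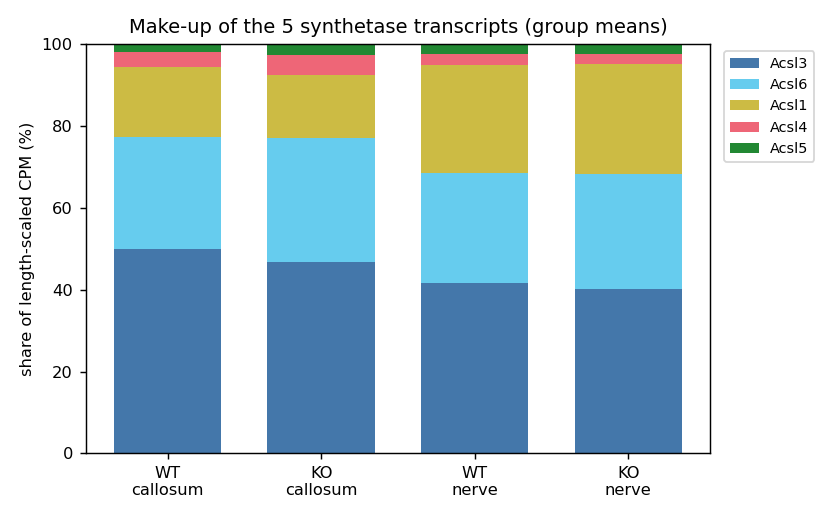
Share of each synthetase in the length-scaled CPM summed over the 5 Acsl genes, as the mean of each group (percent, stacked to the full height). Acsl3 is the largest piece in all 4 groups, and the Acsl1 piece is 17.2% in wild-type callosum and 26.4% in wild-type nerve.

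The comparison of the knockout with the wild type asked whether acyl-CoA supply genes differ when the palmitoyl transferase is reduced. In the corpus callosum, 0 of the 6 members were called at an adjusted p under 0.05 by edgeR's quasi-likelihood test, and 0.0387% of the 15519 genes tested were called. At an unadjusted p under 0.05 Acsl1 alone passed, beside 11.7% of all genes. DESeq2 called 0 of the 6. With limma-voom and its quality weights for libraries, Acsl1, Acsl4 and Dbi were called (3 of 6), and 2786 genes in all against 6 by edgeR. The median log2 fold change was -0.09 over the members and -0.01 over all genes. The ranges of the 2 genotypes overlapped for all 6 members, and 0.858% of all genes had ranges that did not overlap.

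Acsl1, the synthetase best known for feeding fatty acids into oxidation and lipid synthesis, was at 124, 109, 96.5, 112 and 87.2 CPM in the wild-type callosum libraries. In the 6 knockout libraries it was between 72.1 and 102 CPM, with a median of 85.4. The 3 lowest knockout libraries were under the whole wild-type range. The log2 fold change was -0.29 (SE 0.12, 95% interval -0.55 to -0.04, edgeR adjusted p = 0.397).

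Acsl3 was at 372, 357, 257, 285 and 267 CPM in wild-type callosum. In the knockout it ran from 212 to 332 CPM with a median of 254, and 3 of the 6 values were under the whole wild-type range. Its log2 fold change was -0.22 (SE 0.14, 95% interval -0.51 to 0.08, edgeR adjusted p = 0.526).

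Acsl4, which prefers arachidonic acid and other polyunsaturated fatty acids, was at 34.0, 36.2, 49.0, 28.3 and 34.8 CPM in wild-type callosum. In the knockout the lowest library was at 31.3, the median at 47.6 and the highest at 61.3 CPM, so that 3 values were over the whole wild-type range. The log2 fold change was 0.30 (SE 0.18, 95% interval -0.10 to 0.70, edgeR adjusted p = 0.515).

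Acsl5, a synthetase of mitochondria and endoplasmic reticulum and the lowest member, was at 10.6, 15.3, 19.7, 13.1 and 17.7 CPM in wild-type callosum. Its knockout libraries were the most spread of any member, from 10.5 to 29.2 CPM with a median of 19.9 and a coefficient of variation of 35.5%. The log2 fold change was 0.37 (SE 0.25, 95% interval -0.17 to 0.90, edgeR adjusted p = 0.555).

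Acsl6, a synthetase of neural tissue known for its use of docosahexaenoic acid, was the steadiest member of the callosum. Its wild-type libraries were at 160, 157, 167, 157 and 174 CPM, and its knockout libraries ran from 157 to 186 CPM with a median of 167. The log2 fold change was 0.04 (SE 0.08, edgeR adjusted p = 0.851), and the 95% interval of -0.13 to 0.20 was the narrowest of the 6.

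Dbi was at 225, 262, 144, 210 and 251 CPM in wild-type callosum and from 152 to 245 CPM, with a median of 165, in the knockout. Of the 6 knockout libraries, 5 lay between 152 and 175 CPM, and library 29 stood apart at 245. The knockout range lay within the wild-type range. The log2 fold change was -0.31 (SE 0.16, 95% interval -0.67 to 0.04, edgeR adjusted p = 0.471).

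**Figure D2:**
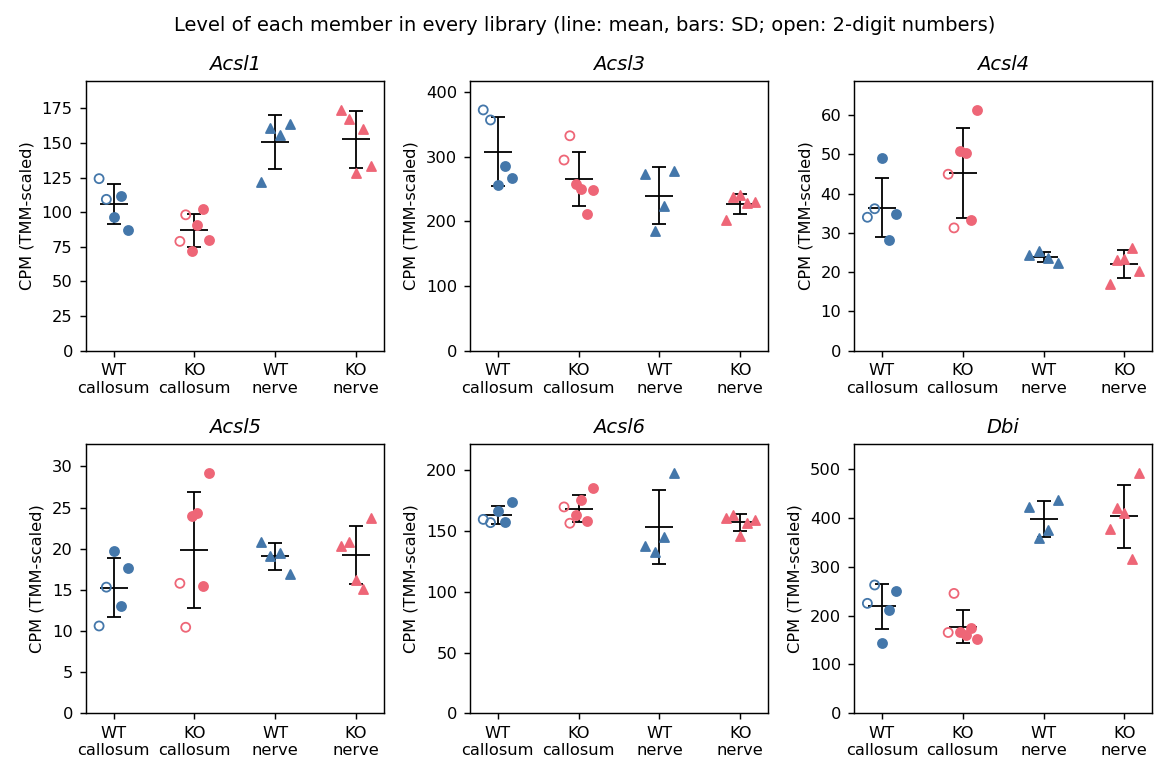
Level of each of the 6 genes (CPM, vertical axes from 0) in every library of the 4 groups; circles are callosum, triangles nerve, blue wild type, red knockout, open symbols libraries with 2-digit numbers, and black lines the mean with SD. The nerve libraries of Dbi start at 315 CPM, above all callosum libraries, those of Acsl4 end at 26.3 CPM, below all callosum libraries, and the genotypes overlap for every gene within a tract.

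By edgeR no marker of the 9 cell type lists was called between genotypes in the callosum, but fold changes within most lists had 1 sign. All 10 oligodendrocyte markers (median log2 -0.50), 5 of 5 precursor markers (-0.28), 7 of 7 microglia markers (-0.34), 7 of 8 astrocyte markers (-0.14) and 5 of 5 markers of fibroblasts and meninges (-0.24) had negative fold changes, as did 3 of 4 pericyte (-0.23) and 4 of 5 endothelial markers (-0.04). All 10 neuron markers (median log2 0.65) and all 6 markers of striatal neurons (0.85) had positive ones. The oligodendrocyte markers summed to 54076 to 90863 CPM in the wild type and 34360 to 67245 CPM in the knockout, and the neuron markers to 1012 to 2912 and 1138 to 4109 CPM. In bulk tissue, fewer cells of a type and less RNA per cell cannot be told apart. With the oligodendrocyte marker level of each library as a covariate, the log2 fold change was -0.02 for Acsl1 (SE 0.09), -0.02 for Acsl3 (SE 0.16), -0.16 for Acsl4 (SE 0.15), -0.27 for Acsl5 (SE 0.20) and -0.02 for Dbi (SE 0.17). With the neuron marker level in its place, Acsl1 was at -0.17 (SE 0.10), Acsl4 at 0.07 (SE 0.15), Acsl5 at -0.06 (SE 0.12) and Dbi at -0.16 (SE 0.14). No member was called in either fit. The marker levels themselves ran with genotype, so these fits cannot tell a knockout effect from a difference in tissue make-up.

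The members fell into 2 sets by how they varied with these markers over the 11 callosum libraries. Acsl1, Acsl3 and Dbi were higher where the mean log2 CPM of the oligodendrocyte markers was higher and that of the neuron markers lower, and Acsl4, Acsl5 and Acsl6 did the opposite. All 12 relations, of 6 genes with 2 marker levels, had a Benjamini-Hochberg adjusted permutation p under 0.05 (two-sided, 100000 resamples, highest adjusted p 0.0441). The same test was not run over all genes, so the share of genes that vary in this way is not known. The relations are therefore not shown to be particular to the members. The points share their libraries and the markers are measured in the same RNA, so the 2 marker levels are not separate evidence. For Acsl5 with the neuron level, Pearson's r was 0.94 (permutation p = 4e-05, adjusted 4.8e-04) and Spearman's rho 0.95 (permutation p = 3e-05), and r was 0.89 without the 2 farthest libraries. For Acsl1 with the oligodendrocyte level, r was 0.93 (permutation p = 1.2e-04, adjusted 7.2e-04), rho 0.93 (permutation p = 1.4e-04) and r without the 2 farthest libraries 0.91. For Acsl4 with the oligodendrocyte level, r was -0.84 (permutation p = 0.00152, adjusted 0.00549), rho -0.80 (permutation p = 0.00437) and r without the 2 farthest libraries -0.81.

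The relations of Acsl3, Acsl6 and Dbi were less steady. Acsl3 with the neuron level had r = -0.83 (permutation p = 0.00183, adjusted 0.00549) and rho = -0.88 (permutation p = 7.8e-04), with r = -0.68 without the 2 farthest libraries. Within the 7 libraries of 6- or 7-digit numbers, Acsl3 with the neuron level was at r = -0.42 (exact permutation p = 0.291). There rho was -0.61 (exact permutation p = 0.167), and r was 0.17 without the 2 farthest libraries. With the oligodendrocyte level Acsl3 was at r = 0.18 (exact permutation p = 0.713). Neither relation of Acsl3 passed 0.05 within that format, where 7 libraries leave wide uncertainty. Within the same 7 libraries Acsl5 kept r = 0.93 with the neuron level (exact permutation p = 9.92e-04, adjusted 0.00714) and Acsl1 kept r = 0.88 with the oligodendrocyte level (exact permutation p = 0.0115, adjusted 0.0276). With the neuron level, Acsl1 was at r = -0.77 there (exact permutation p = 0.0393, adjusted 0.0786), beside -0.75 over the 11 libraries. Without the 2 farthest of the 7 libraries it was at -0.49. That relation was as strong within the format but did not pass 0.05 after adjustment. Acsl4 was at r = -0.93 there with the oligodendrocyte level (exact permutation p = 0.00198, adjusted 0.00794). Dbi with the neuron level was at r = -0.74 over 11 libraries (permutation p = 0.0118, adjusted 0.0129; rho -0.75, permutation p = 0.0115; r = -0.72 without the 2 farthest) and at -0.60 over the 7 (exact permutation p = 0.152). Acsl6 with the oligodendrocyte level was at r = -0.76 over 11 libraries (permutation p = 0.00622, adjusted 0.0111; rho -0.75, permutation p = 0.0106; r = -0.65 without the 2 farthest) and at -0.71 over the 7 (exact permutation p = 0.0766), where it was -0.05 without the 2 farthest. The 4 libraries with 2-digit numbers were too few for a value of their own.

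**Figure D3:**
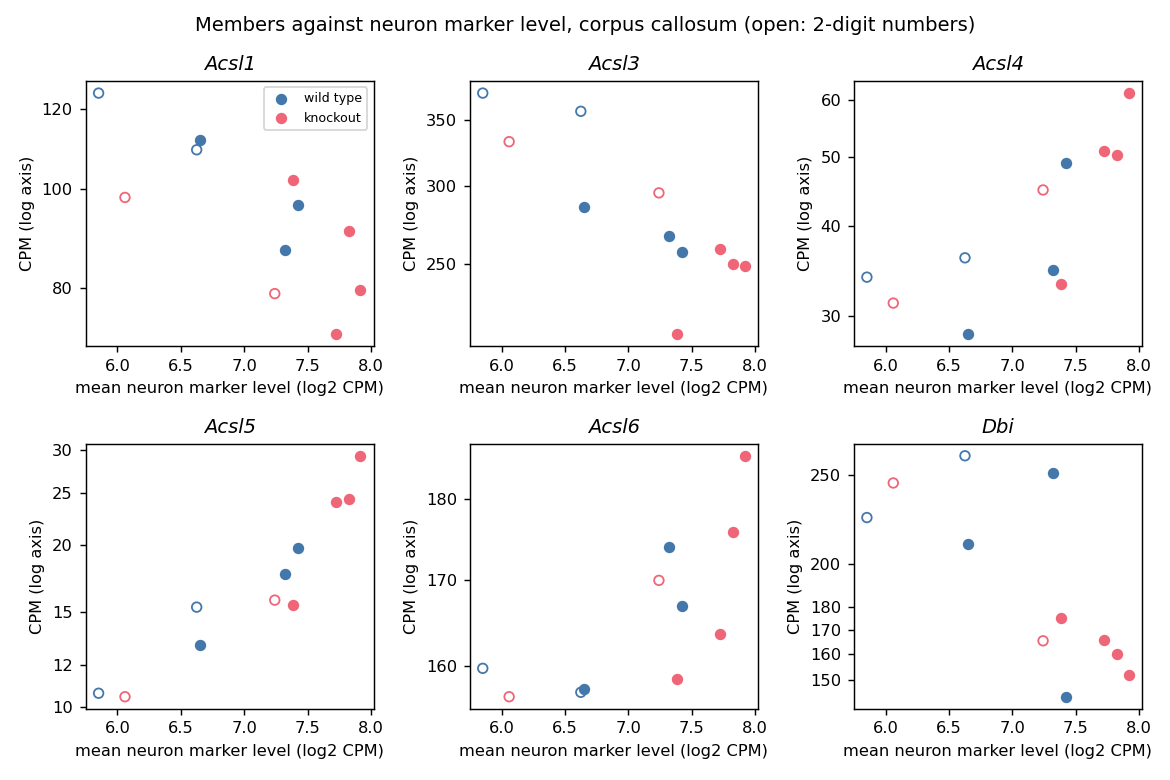
CPM of each gene (log axis) against the mean log2 CPM of 10 neuron markers in the 11 corpus callosum libraries; blue is wild type, red knockout, and open symbols are libraries with 2-digit numbers. Acsl5 follows the marker level most closely (r = 0.94), Acsl4 and Acsl6 also run upward, and Acsl1, Acsl3 and Dbi run downward.

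Sample number format was compared as a possible difference between callosum libraries that genotype does not account for. In a fit with genotype, 2 of 6 members were called, and 26.6% of the 16228 genes tested were called. Acsl3 was at 295 to 372 CPM (median 345) in the 4 libraries with 2-digit numbers and at 212 to 285 CPM (median 257) in the 7 others. These ranges did not overlap, as for 12.4% of all genes, and Acsl3 fell by 0.40 on the log2 scale from the shorter to the longer format (SE 0.08, edgeR adjusted p = 0.00503). Acsl5 was at 10.5 to 15.8 CPM and 13.1 to 29.2 CPM, and rose by 0.60 (SE 0.20, edgeR adjusted p = 0.0466), a call that was lost when any of 8 libraries was left out. Of the 10 neuron markers, 8 were also called higher in the longer format, and their part in the Acsl3 and Acsl5 differences was not tested. Within the 7 libraries of the longer format the knockout fold changes were -0.21 for Acsl1 (SE 0.14), -0.17 for Acsl3 (SE 0.11), 0.37 for Acsl4 (SE 0.23), 0.45 for Acsl5 (SE 0.21), 0.02 for Acsl6 (SE 0.10) and -0.32 for Dbi (SE 0.17) on the log2 scale, with no call. Within the 4 of the shorter format they were -0.36 (SE 0.16), -0.18 (SE 0.14), 0.16 (SE 0.22), 0.06 (SE 0.31), 0.08 (SE 0.14) and -0.21 (SE 0.22) in the same order, with no call.

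In the optic nerve the knockout and wild-type levels of the members lay close together. By edgeR 0 of 6 members were called, with 0.0129% of the 15556 genes tested called, and 0 members passed an unadjusted p under 0.05, beside 5.48% of all genes. DESeq2 and limma-voom with quality weights also called 0 members. The ranges of the genotypes overlapped for all 6, against 2.0% of genes whose ranges did not. The widest fold change was that of Acsl4, at -0.13 (SE 0.13, 95% interval -0.41 to 0.14, edgeR adjusted p = 0.869). Of the 5 knockout nerve libraries, 2 carry numbers with a letter, a format that no wild-type library has, and without them the log2 fold changes ran from -0.11 for Acsl1 to 0.02 for Dbi, with no call.

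In the nerve, Acsl1 was at 122, 161, 156 and 164 CPM in the wild type and at 174, 167, 128, 160 and 133 CPM in the knockout. The log2 fold change was 0.00 to 2 decimals, with a 95% interval of -0.26 to 0.26. Dbi was at 422, 359, 375 and 436 CPM in the wild type and at 376, 421, 410, 315 and 492 CPM in the knockout. The lowest and the highest nerve libraries of Dbi were both knockout, and the 95% interval of its log2 fold change was -0.27 to 0.27. Acsl4 was at 24.3, 25.4, 23.6 and 22.4 CPM in the wild type and at 17.0, 23.1, 23.4, 26.3 and 20.3 CPM in the knockout. Acsl3 was at 273, 185, 224 and 277 CPM in the wild type and at 202, 238, 241, 228 and 230 CPM in the knockout, all 5 knockout libraries within the wild-type range. Acsl5 ran from 16.9 to 20.9 CPM in the wild type and from 15.1 to 23.7 CPM in the knockout. Acsl6 was at 138, 133, 145 and 198 CPM in the wild type, with the last library above all others, and at 146 to 163 CPM in the knockout. The 95% intervals were -0.37 to 0.18 for Acsl3, -0.29 to 0.26 for Acsl5 and -0.24 to 0.27 for Acsl6.

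The difference of the knockout effect between the tracts was tested as an interaction over all 20 libraries. By edgeR 0 of 6 members were called, and 0.0% of the 16440 genes were called. At an unadjusted p under 0.05 no member passed, against 6.83% of all genes, and DESeq2 and limma-voom called 0 members. The effect in nerve minus the effect in callosum was -0.43 for Acsl4 (SE 0.24, 95% interval -0.94 to 0.07), -0.37 for Acsl5 (SE 0.32, -1.03 to 0.29), 0.32 for Dbi (SE 0.22, -0.14 to 0.78) and 0.30 for Acsl1 (SE 0.18, -0.07 to 0.67) on the log2 scale. Acsl3 was at 0.13 (SE 0.19) and Acsl6 at -0.01 (SE 0.13). The adjusted p-values by edgeR ran from 0.74 for Acsl4 to 0.99 for Acsl6.

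More members were called between the tracts than between the genotypes. Between wild-type optic nerve and wild-type corpus callosum, 4 of 6 members were called by edgeR, 2 higher and 2 lower in nerve. Of the 16440 genes tested, 51.3% were called, 25.3% higher and 26.0% lower, so the members' share lies near the background. None of the members reached a fold change of 1 on the log2 scale together with a call, against 26.2% of all genes. The median log2 fold change was 0.12 over the members and -0.03 over all genes.

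Dbi had the highest fold. The wild-type nerve libraries, at 359 to 436 CPM, all lay above the callosum libraries, at 144 to 262 CPM. Its log2 fold change was 0.87 (SE 0.16, edgeR adjusted p = 1.58e-04), a level 1.82 times as high. Acsl1 rose by 0.51 (SE 0.13, adjusted p = 0.00245), from 87.2 to 124 CPM in callosum to 122 to 164 CPM in nerve, with 3 of 4 nerve libraries above all callosum libraries. Acsl4 fell by 0.61 (SE 0.18, edgeR adjusted p = 0.00815), from 28.3 to 49.0 CPM in callosum to 22.4 to 25.4 CPM in nerve, and its ranges did not overlap. Ranges that do not overlap were seen in 42.5% of all genes here.

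Acsl3 fell by 0.36 from wild-type callosum to nerve (SE 0.14, edgeR adjusted p = 0.0422), and its ranges overlapped. This call was lost in 10 of 30 alternative settings. Of the 30, 11 only left out a knockout library, which reaches this comparison through the filter, scaling and shared spread alone. Another was fitted to 3 knockout pairs and 1 wild-type pair, so it is not a wild-type comparison. Without the callosum libraries of 2-digit numbers the log2 fold change of Acsl3 was -0.17 (edgeR adjusted p = 0.276). Without the nerve library where Acsl3 was lowest, at 185 CPM, the fold change was -0.22 (adjusted p = 0.221). It was also lost when the callosum library at 372, 357 or 285 CPM or the nerve library at 224 CPM was left out, at log2 fold changes between -0.28 and -0.35. Acsl5 was at 0.32 (SE 0.23, adjusted p = 0.272) and Acsl6 at -0.09 (SE 0.10, adjusted p = 0.49). Without the nerve library at 198 CPM, its highest, Acsl6 was called at -0.20 (edgeR adjusted p = 0.0461).

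Between knockout nerve and knockout callosum, which share no library with the wild-type pair, 3 of 6 members were called by edgeR, 2 higher and 1 lower in nerve. Of the 16440 genes, 62.9% were called, 31.9% higher and 31.0% lower. Dbi rose by 1.18 (SE 0.15, adjusted p = 7.91e-07), a level 2.27 times as high, from 152 to 245 CPM in callosum to 315 to 492 CPM in nerve. Acsl1 rose by 0.81 (SE 0.12, adjusted p = 5.09e-06), from 72.1 to 102 CPM to 128 to 174 CPM. Acsl4 fell by 1.04 (SE 0.16, edgeR adjusted p = 1.55e-05), from 31.3 to 61.3 CPM to 17.0 to 26.3 CPM. For these 3 genes the nerve and callosum ranges did not overlap, as for 43.5% of all genes. The calls were present in all 31 alternatives. Some of these only left out a wild-type library, which reaches this comparison through the filter, scaling and shared spread alone. Dbi and Acsl4 also passed the fold of 1 on the log2 scale, against 30.1% of all genes. Acsl3 was at -0.22 (SE 0.13, adjusted p = 0.135), Acsl5 at -0.05 (SE 0.21, adjusted p = 0.85) and Acsl6 at -0.10 (SE 0.09, adjusted p = 0.338). Whether the tract difference differs between genotypes is the interaction given above, which called no member.

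**Figure D4:**
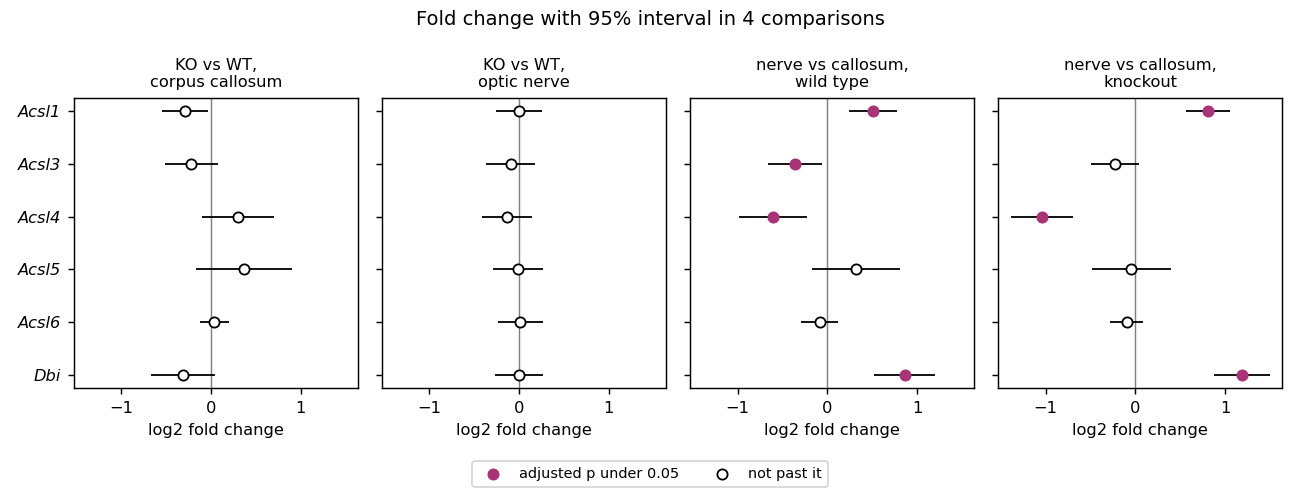
Log2 fold change of each gene (point) with its 95% interval (line) in 4 comparisons by edgeR; filled points passed an adjusted p of 0.05. No gene passed in either knockout comparison, and Dbi (0.87 and 1.18), Acsl1 (0.51 and 0.81) and Acsl4 (-0.61 and -1.04) passed between the tracts in both genotypes.

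The markers differed between the tracts as well. In the wild type, 8 of 10 neuron markers were called lower in nerve (median log2 fold change -3.52), and 7 of 7 microglia markers (median 1.14), 5 of 5 endothelial markers (median 0.74) and 5 of 5 markers of fibroblasts and meninges (median 6.09) were called higher. Of 8 astrocyte markers, 4 were called higher and 2 lower, and the list summed to 3816 to 4707 CPM in wild-type callosum and 8385 to 10982 CPM in wild-type nerve. Of 10 oligodendrocyte markers, 2 were called lower and none higher (median 0.10). In the knockout, 10 of 10 neuron markers were called lower (median -3.53), and 6 of 10 oligodendrocyte markers were called higher and 1 lower (median 0.43). The microglia, endothelial and fibroblast lists were called higher in full in the knockout too, and of 8 astrocyte markers 5 were called higher and 2 lower. The part of these cell types in the tract differences of Dbi, Acsl1 and Acsl4 was not tested.

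The genes around the members in acyl-CoA metabolism were taken from 8 lists, which hold 78 genes. In the callosum 0 of the 71 tested genes were called between genotypes by edgeR, while 16 had an unadjusted p under 0.05, or 22.5%, against 11.7% of all genes. DESeq2 called 2, both lower, and limma-voom with quality weights called 3 higher and 14 lower. The smallest p-values were those of Lpcat2, a lysophosphatidylcholine acyltransferase, at -0.41 (SE 0.09, edgeR adjusted p = 0.2), and of Acss2, which activates acetate, at -0.47 (SE 0.12, edgeR adjusted p = 0.247). Over the 71 genes, 52 fold changes were negative (median -0.09, against -0.01 over all genes). The glial marker lists also had mostly negative fold changes in these libraries, and their part was not tested. In mitochondrial oxidation 9 of 10 fold changes were negative (median -0.19), with Acadl, a long-chain acyl-CoA dehydrogenase, at -0.37 (SE 0.13) and Hadha, a subunit of the trifunctional protein, at -0.24 (SE 0.10). Scp2 at -0.21, Acot1 at -0.47, Fabp7 at -0.33, Acaa1a at -0.34 and Ppard at -0.34 also had negative fold changes, and Acbd7 at 0.66, Abcd2 at 0.41 and Ppargc1a at 0.37 positive ones, with no call. In the nerve 0 of 70 were called between genotypes by edgeR, DESeq2 or limma-voom, and 4 had an unadjusted p under 0.05, or 5.71%, against 5.48% of all genes. The smallest p-values there were those of Acss2 at -0.27 (SE 0.08) and Dgat2, an enzyme of triglyceride synthesis, at 0.42 (SE 0.13), and edgeR's adjusted p was 0.845 for both.

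Between the tracts of the wild type, 30 of the 74 tested genes of these lists were called higher in nerve and 10 lower. That is 54.1% called against the background of 51.3%. In the knockout, 39 were called higher and 12 lower, 68.9% against 62.9%. These counts include genes that did not pass the low-count filter in both tracts, Cd36 and Slc27a2 in both genotypes and Acbd7 and Acot3 in the knockout. The carnitine shuttle and mitochondrial oxidation list, which follows the synthetases on the way to oxidation, had 9 of 10 called higher and 1 lower in both genotypes, with medians of 0.51 in the wild type and 0.62 in the knockout, where the medians over all genes were -0.03 and 0.00. Cpt1a, the carnitine palmitoyltransferase of the outer mitochondrial membrane, rose by 0.73 (SE 0.11, edgeR adjusted p = 1.2e-05) in the wild type, and Cpt2, its partner of the inner membrane, rose by 0.85 (SE 0.17). Slc25a20, the carrier of acylcarnitines, rose by 0.50 (SE 0.09) and Acadl by 0.68 (SE 0.12).

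The counts for single lists are to be read against the 51.3% of all genes called in the wild type, 25.3% higher and 26.0% lower. Among the other acyl-CoA synthetases, 3 of 12 were called higher and 2 lower in wild-type nerve. Acss3 rose by 2.14 (SE 0.23), Acss2 by 0.85 (SE 0.11) and Acsf2 by 0.62 (SE 0.11), while Acss1, which activates acetate in mitochondria, fell by 1.19 (SE 0.18). The other lower call was Slc27a2, a fatty acid transport protein with synthetase activity, at -2.06 (SE 0.76). It passed the low-count filter of the callosum fit but not that of the nerve fit, so a lower value in nerve was fixed by the filter and its call is no evidence of a difference. Of the acyl-CoA binding domain proteins related to Dbi, 1 of 7 was called, Acbd4, which rose by 0.76 (SE 0.17). Of the thioesterases, which release the fatty acid again, 4 of 11 were called higher and 2 lower, with Acot9 up by 0.67 (SE 0.14), Acot2 up by 0.54 (SE 0.12) and Them4 at -0.59 (SE 0.17). In uptake and binding, Fabp3, a fatty acid binding protein, fell by 2.43 (SE 0.48). Cd36, a fatty acid translocase also found in vessels and macrophages, was the other called gene of the 4 tested, at 2.92 (SE 0.44). It passed the filter of the nerve fit but not that of the callosum fit, so a higher value in nerve was fixed in the same way.

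In the peroxisomal list 4 of 8 were called higher and 1 lower in wild-type nerve, beside the same 25.3% and 26.0% of all genes. Abcd2, a peroxisomal importer of acyl-CoA, fell by 1.36 (SE 0.21), and Acox3, a peroxisomal acyl-CoA oxidase, rose by 0.52 (SE 0.12). Of 14 glycerolipid acyltransferases 5 were called higher and 3 lower, with Agpat2 up by 2.81 (SE 0.24), Lpcat2 up by 1.22 (SE 0.09) and Dgat2 at -1.67 (SE 0.13). The list of regulators also holds Tspo, a mitochondrial membrane protein that binds the Dbi product. Of the 8 genes in this list, 3 were called higher and none lower. They were the nuclear receptors Rxra (0.73, SE 0.12) and Ppard (0.47, SE 0.11), and Tspo. Tspo rose by 2.39 (SE 0.22, edgeR adjusted p = 2.33e-08) in the wild type and by 3.04 (SE 0.21, adjusted p = 1.4e-10) in the knockout, next to the 0.87 and 1.18 of Dbi. Tspo is high in microglia and vessels, whose markers were also called higher in nerve, and their part was not tested.

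**Figure D5:**
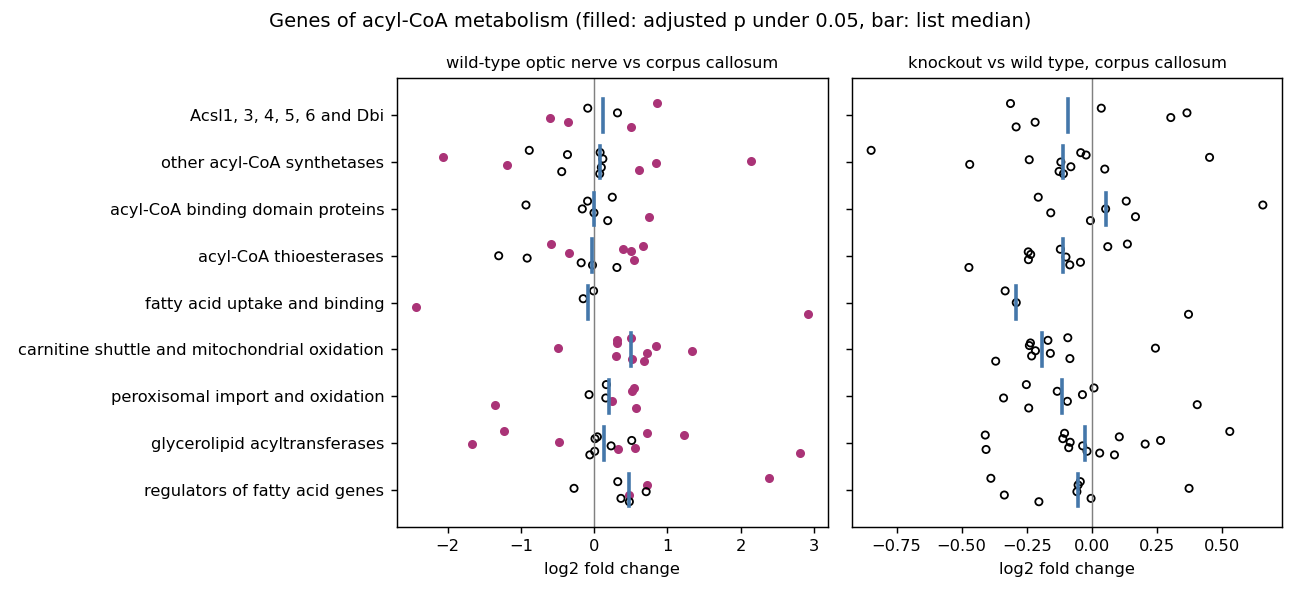
Log2 fold change of each tested gene of acyl-CoA metabolism by list, between tracts in the wild type (left) and between genotypes in the callosum (right, a narrower axis); filled points passed an adjusted p of 0.05 and blue bars are list medians. On the left 9 of 10 genes of the carnitine and mitochondrial list are filled and right of 0, and on the right no point is filled.

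The genes whose levels ran most like each member were found over the 20 libraries after the mean of each group was taken out, among 10738 genes. Acsl5 was closest to Fmn1 (Pearson r = 0.95), Atrnl1 (0.94) and Capn1 (0.93), and Acsl4 to Fut9 (0.95) and Rock2 (0.93). Dbi was closest to Cnn3 (0.92), Ift43 (0.91) and Ccdc190 (0.90), and Acsl1 to the potassium channel gene Kcna6 (0.87), Slc25a29 (0.86) and Gtf2i (0.84). Acsl3 was closest to Fbxo30 (0.86), Mat2a (0.82) and Tmem209 (0.82). The lowest values were those of Acsl6, with Sorl1 (0.76), Rnf24 (0.75) and Klhl8 (0.75). These are descriptions of shared variation between libraries, which also share depth and tissue make-up. They pool both tracts, and likeness within each tract alone was not measured for these genes.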

How the data were processed

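The authors deposited gene-level estimated counts for 20 libraries, made with kallisto per the table's name. The genome build was mm10 per the submitters' processing notes, while no source used here gives the annotation, the kallisto version or the handling of strand. Of the positive values 30.1% were whole to within 1e-06, and they were rounded for the tests. No 2 libraries were identical. Counts were analysed with edgeR 4.0.16 in R 4.3.3: TMM scaling, filterByExpr (minimum count 10, minimum total 15), a quasi-likelihood test and Benjamini-Hochberg adjustment over all genes tested, with a call at an adjusted p under 0.05. Genotype was fitted within each tract, tract and interaction over all 20 libraries, and number format together with genotype within callosum. The standard error is the fold change divided by the root of F. CPM use the TMM factors of the 20 libraries. Lengths are means of basic coding transcripts in GENCODE M21. The scripts were tested on simulated data with known changes. Between genotypes, changes of 0.5 on the log2 scale were called in 7.58% of the changed genes in callosum and 30.3% in nerve. Changes of 1 were called in 70.6% and 63.5%. A count of 0 called members therefore says little about changes of 0.5 or less.

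The members and lists were chosen with earlier results of these data known. Besides the members and Zdhhc9, genes were named by a rule: in each list and comparison the called genes, up to 6 by smallest p, of which the text gives the main ones, or the 2 with the smallest p where none was called, and the 3 genes most like each member. A few items that the rule names are not reported here. Alternatives were DESeq2 1.42.0 and limma 3.58.1 (voom with quality weights), other scaling and filters, marker level or number format as covariate, subsets by format, each library left out, and sample number as a block. Correlations used scipy 1.17.1.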

Additional observations from a re-analysis of the deposited data

Results flagged for a closer look

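Dbi stood at 245 CPM in library 29 of the knockout corpus callosum, while the next library of that group was at 175 CPM. This library also had the lowest neuron marker level of its group, at a mean log2 CPM of 6.06 against 7.24 to 7.92. Its oligodendrocyte marker level, at 11.47, was the highest of the group. The part of tissue make-up in the Dbi value was not tested. The gap in Dbi was 0.751 of the group's range, above the critical value of 0.625 for 6 samples. It was the only such value among 24 checks of 6 genes in 4 groups, and chance flags about 1 in 20 groups.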

How the results depend on the processing

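The count of called members in the callosum knockout comparison was 0 in 23 of 24 alternatives and 3 with limma-voom and sample quality weights (Acsl1 -0.41, Acsl4 0.48 and Dbi -0.46, adjusted p 0.0311, 0.0435 and 0.0301), which called 2786 genes in all. DESeq2 called 175 genes there and edgeR's joint fit 41. In nerve, 0 members were called in all 20 alternatives, and DESeq2 called 35 genes in all against 2. In the interaction, 0 were called in all 29. Between tracts, the wild-type count ran from 3 to 5 over 30 alternatives and the knockout count was 3 in all 31. Both sets include fits that only left out a library of the other genotype, which are weak checks of these counts. For number format, the count of 2 ran from 1 to 2 when each replicate was left out; the call lost was that of Acsl5. The number of genes called for format was 1912 without knockout library 29 and 2005 without wild-type library 28, against 4320.

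Sample numbers shared by both tracts were tried as a replicate block. Over genes, the deviations of same-numbered knockout libraries from their group means correlated at 0.02, -0.15 and 0.13, and those of the wild-type number at -0.05. Pairs of the same genotype with different numbers ran from -0.27 to 0.24. These values cannot tell whether a shared number marks the same animal, since libraries of different tracts need not deviate alike. The main tests treated the libraries as separate. With the block, 3 members were called between tracts over the 3 knockout pairs, and 3 over the 4 pairs of both genotypes, where Acsl3 was at -0.10 and not called. With the number as a random effect, 0 members were called in the interaction. The random effect for the tract comparisons, the 3 pairs without the block and the longest transcript length were chosen after seeing the data. Precision is limited by 4 to 6 libraries a group, and by their spread, with a biological coefficient of variation of 23.7% in callosum and 20.2% in nerve.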
